A study of Mus musculus with 22 samples.

Results

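Liver RNA of newborn mice was compared between 2 AAV9 vectors that share a capsid and a promoter and differ in cargo. The E332K group (rAAV9.CB.ST3GAL5.E332K) received an ST3GAL5 cargo that carries the substitution the labels call E332K, and the EGFP group (rAAV9.CB.EGFP) received a fluorescent reporter. ST3GAL5 is the Golgi sialyltransferase that makes the ganglioside GM3, and loss of both alleles causes GM3 synthase deficiency. CB is a CMV enhancer joined to the chicken β-actin promoter, which is active in most tissues, so neither cargo was restricted to hepatocytes by its promoter. Libraries were assigned to the groups by their labels, which gave 3 E332K and 4 EGFP libraries out of 22 in the series, each from the liver of a male WT C57BL/6 pup injected intravenously on postnatal day 1 and killed 36 hours later. Of the other groups, 3 CB.ST3GAL5 livers, which received the wild-type cargo behind the same promoter, were tested against E332K for the genes named here, and AAV9.empty, PBS and Syn1.ST3GAL5.miR122BS livers (4 each) are given as levels only. The labels do not tie pups to litters, so each p-value covers only the variation among the livers at hand. Vector dose, vector genomes per liver and transgene RNA were not analysed here, so the sequence of the cargo and the amount delivered or expressed cannot be told apart. In whole liver, a change in the share of a cell type and a change in RNA per cell cannot be told apart either.

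Proteins that enter the secretory pathway fold in the endoplasmic reticulum (ER), where chaperones such as BiP (Hspa5) and disulfide isomerases assist them, and chains that fail to fold are pulled back to the cytosol and degraded (ER-associated degradation, ERAD). When misfolded protein accumulates, the unfolded protein response is switched on through the sensors ATF6, IRE1 and PERK. ATF6 and XBP1, the factor made active by IRE1, raise chaperone and ERAD genes, while PERK acts through ATF4 and CHOP (Ddit3) on genes of amino acid supply, feedback and cell death. Hepatocytes, which secrete most plasma proteins, carry a large ER and are a tissue in which this response is well known.

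The libraries held 17546985 to 21387813 expected counts (reads per gene as estimated by RSEM), and every level below is in CPM, that is, counts set relative to the size of the library with edgeR's TMM factors. The endogenous mouse gene St3gal5 had 176, 195 and 136 CPM in E332K livers, against 195, 189, 180.4 and 171 CPM in EGFP livers, a log2 fold change of −0.13 ± 0.12 (SE) that was not past the threshold (edgeR, adjusted p = 0.547). Alb, the hepatocyte product albumin, was among the most abundant transcripts of each library, with 39000 to 46130 CPM in E332K livers and 56275 to 59030 CPM in EGFP livers. On the first principal component (40.6% of the variance) the 2 groups lay on opposite sides of 0, with E332K 3 at 47.95, E332K 1 and 2 at 19.16 and 20.71, and the EGFP livers between −26.84 and −18.16. E332K 3 thus lay apart from its group on this axis, and 12 skeletal muscle markers, a list added after the values were seen, summed to 921 CPM in EGFP 3 against 5.16 to 13.3 CPM in the other 6 livers. Gm47283, an annotated gene of chromosome Y, had 30.2, 11.6 and 10.1 CPM in E332K livers and 18.3 CPM in EGFP 3, and was at 0 in EGFP 1, 2 and 4. Erdr1 was split in the same way, with 5.66, 1.94 and 5.40 CPM in E332K livers and 2.16 CPM in EGFP 3 alone. Mid1 had 10.8, 3.94 and 4.05 CPM in E332K livers, against 2.86, 3.12, 10.5 and 3.18 CPM in EGFP livers. The part of these 3 genes in the other results was not tested beyond the fits named beside them.

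Of 14693 genes tested (edgeR's quasi-likelihood test with Benjamini-Hochberg adjustment), 625 were higher in E332K livers with an adjusted p no larger than 0.05 (4.25%) and 536 were lower (3.65%), or 7.9% in either direction. A change of at least 2-fold as well was seen for 149 genes that were higher (1.01%) and 123 that were lower (0.837%). Over the whole set the log2 fold changes had a median of 0.00. E332K 3 was the highest of the 3 E332K livers for 114 of the 149 genes and the lowest for 73 of the 123. Without E332K 3, 107 genes were at least 2-fold higher and 75 lower, and with EGFP 3 left out too, 121 and 67. Leaving out EGFP 2, 3 or 4 lowered the 1161 genes past the adjusted p alone to 709, 736 or 681. The plot of all genes shows that the higher side was led by Derl3, Saa1, Saa3, Creld2, Sdf2l1 and Hsp90b1, and the lower side by Fos, Zfp36, Car3, Car5a and Slc22a7.

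**Figure D1:**
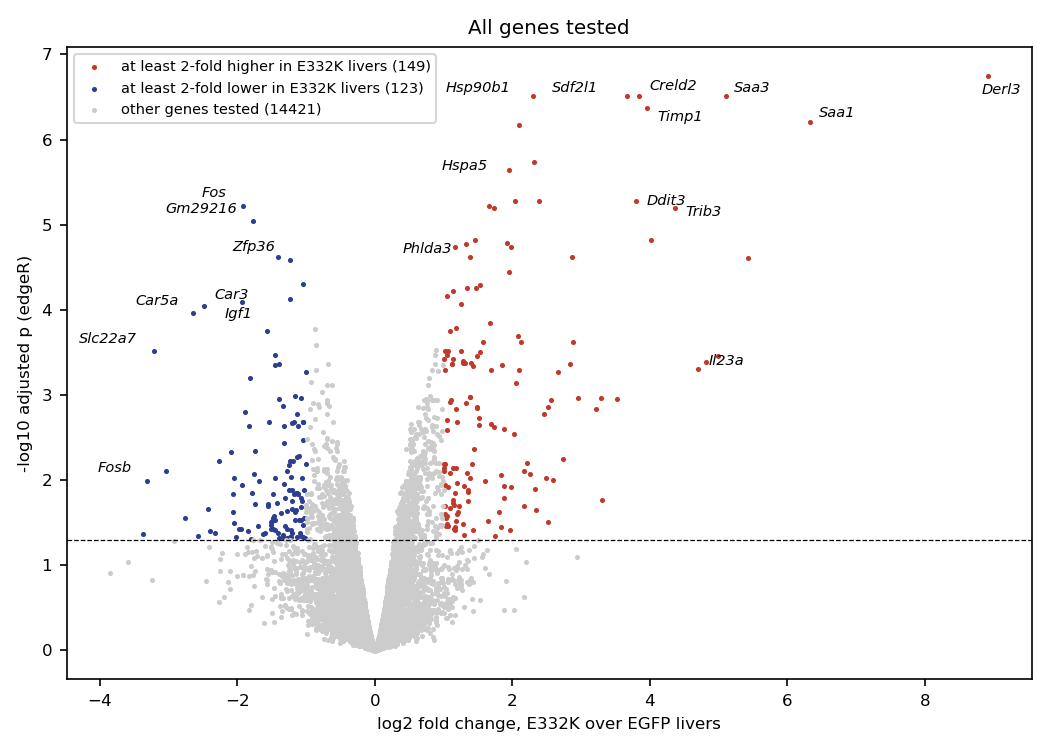
Log2 fold change of E332K over EGFP livers (x axis) against −log10 of the adjusted p from edgeR (y axis) for the 14693 genes tested, with the 149 genes at least 2-fold higher in red, the 123 at least 2-fold lower in blue and the dashed line at an adjusted p of 0.05. Derl3 lies apart on the right at a log2 fold change of 8.92.

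Genes for ER chaperones and folding enzymes were higher in E332K livers. Of 35 members tested of this list, 23 were higher and 0 lower in E332K livers, against 4.25% and 3.65% of all genes, and the median log2 fold change of the members was 0.64, against 0.00 over all genes. Hspa5, which encodes BiP, the main ER Hsp70 (chr2:34771970-34777547, GRCm38), had 2311, 2999 and 3377 CPM in E332K livers, against 804, 734, 739 and 706 CPM in EGFP livers. The groups did not overlap, and the log2 fold change was 1.95 ± 0.12 (adjusted p = 2.29e-06). Hsp90b1, the ER Hsp90 GRP94 (chr10:86690209-86705509), had 2199, 2716 and 3031 CPM in E332K livers, against 580.5, 542, 517 and 503 CPM in EGFP livers (log2 fold change 2.30 ± 0.12, adjusted p = 3.08e-07). Creld2, an ER protein induced by ER stress (chr15:88819646-88826683), had 344, 523 and 701 CPM in E332K livers, against 37.99, 33.02, 37.6 and 36.5 CPM in EGFP livers. At a log2 fold change of 3.84 ± 0.19 (adjusted p = 3.08e-07) it was the chaperone-list member with the largest difference. Sdf2l1, a partner of the BiP cycle (chr16:17130138-17132383), had 152, 202 and 283 CPM in E332K livers, against 16.4, 15.2, 15.8 and 19.2 CPM in EGFP livers (log2 fold change 3.66 ± 0.18, adjusted p = 3.08e-07). For all 4 genes the lowest liver was E332K 1 and the highest E332K 3.

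The remaining members spanned the folding machinery. Among disulfide isomerases and related oxidoreductases, several rose, with log2 fold changes of 2.32 ± 0.14 for Pdia4, 1.33 ± 0.11 for Pdia6, 1.16 ± 0.10 for Pdia3 and 0.64 ± 0.11 for P4hb, and others did not pass the test, namely Pdia5 (0.09 ± 0.09, adjusted p = 0.597), Txndc5 (0.19 ± 0.10, adjusted p = 0.284) and Dnajc10 (0.33 ± 0.10, adjusted p = 0.0615). Co-chaperones of BiP rose as well, namely Hyou1 (2.04 ± 0.14), Dnajb9 (1.92 ± 0.15), Dnajc3 (1.67 ± 0.12), Dnajb11 (1.46 ± 0.12) and Sil1 (0.51 ± 0.11). Manf, a secreted factor that also binds BiP, had 389, 470.5 and 571 CPM in E332K livers, against 112, 106, 113 and 111 CPM in EGFP livers, a log2 fold change of 2.10 ± 0.12 (adjusted p = 6.73e-07). In the lectin cycle that holds glycoproteins for folding, Calr (calreticulin) had 2092, 2145 and 3027 CPM in E332K livers, against 986, 948, 909 and 953 CPM in EGFP livers (log2 fold change 1.34 ± 0.13). Its membrane-bound counterpart Canx, calnexin, had 393, 378 and 417 CPM in E332K livers, against 370.2, 339.5, 322 and 313 CPM in EGFP livers, and did not pass the test (log2 fold change 0.23 ± 0.09, adjusted p = 0.151). Ero1lb, an oxidase that recharges the isomerases, was higher by 1.74 ± 0.13. The plot of ER genes by liver shows the 2 groups apart for each of the 12 genes drawn.

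**Figure D2:**
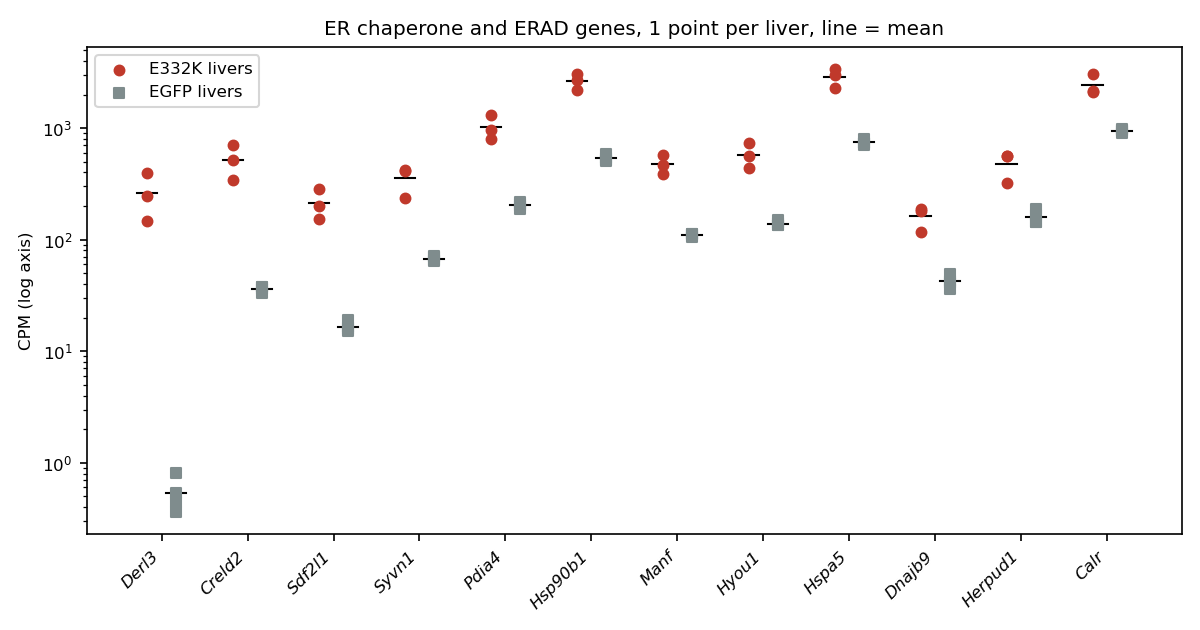
CPM on a log axis (y) of 12 ER chaperone and ERAD genes (x), with 1 point for each of 3 E332K livers (red circles) and 4 EGFP livers (grey squares) and a line at each group's mean. Every E332K liver lies above every EGFP liver for the genes drawn, and Derl3 spans 146 to 398 CPM in E332K livers against 0.361 to 0.808 CPM in EGFP livers.

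ERAD genes were higher too, with 15 of 23 members tested higher and 0 lower, against 4.25% and 3.65% of all genes (median log2 fold change 0.43). Derl3, a derlin of the channel that returns misfolded proteins to the cytosol (chr10:75893413-75895941), had 146, 244 and 398 CPM in E332K livers, against 0.448, 0.808, 0.361 and 0.530 CPM in EGFP livers. This was the largest fold change and the smallest adjusted p of all genes (log2 fold change 8.92 ± 0.38, adjusted p = 1.78e-07), and it rested on 14296 counts in the 3 E332K livers against 40 counts in the 4 EGFP livers. Its relatives Derl1 (0.72 ± 0.10) and Derl2 (0.51 ± 0.09) were also higher. Syvn1, the ubiquitin ligase HRD1 (chr19:6046576-6053712), had 238, 422 and 411 CPM in E332K livers, against 64.1, 71, 65.3 and 70.6 CPM in EGFP livers (log2 fold change 2.39 ± 0.17, adjusted p = 5.26e-06). Sel1l, the adaptor of that ligase, had 404, 633 and 641 CPM in E332K livers, against 184, 193, 202 and 189.5 CPM in EGFP livers (1.53 ± 0.14). The scaffold Herpud1 (1.57 ± 0.17), the mannosidase-like Edem1 (1.18 ± 0.12) and the lectin Os9 (0.86 ± 0.13) rose as well. The count of 0 lower in both lists was also 0 at an unadjusted p of at most 0.05 and by DESeq2. With E332K 3 and EGFP 3 both left out, 21 chaperone and 10 ERAD members were higher. With the presence of Gm47283 as a covariate, a fit in which EGFP 3 is the only EGFP library with that gene, the counts were 15 and 5. With the mesothelial score described at the end they were 16 and 5. The summed markers of that score did not overlap between the groups, so a fit with it cannot separate the score from the cargo. In the fit with Gm47283, which all E332K livers held, the group term compares E332K livers with EGFP 3 alone. Counts from that fit, here and below, thus rest on EGFP 3 as the only EGFP liver and cannot show the part of Gm47283.

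Stretches of the promoters of these genes, taken from RefSeq (GRCm38.p6, 250 bases before to 50 bases after the gene's start), are shown because they hold the sequences that ATF6 and XBP1 are known to bind. The ER stress response element, ERSE, was searched on both strands as CCAAT and CCACG with 9 bases of any kind between them, and its shorter relative ERSE-II as ATTGG and CCACG with 1 base between them; both end in CCACG, which the XBP1 element TGACGTGG also holds on its other strand as CCACG. Promoters were matched by symbol for 11128 of the genes tested, for 113 of the 149 genes at least 2-fold higher and for 89 of the 123 at least 2-fold lower. An ERSE was found in 8 promoters of the higher genes (7.08%), in 0 of the lower genes and in 20 of all tested genes (0.18%). ERSE-II was found in 2 promoters of the higher genes (1.77%), in 0 of the lower genes and in 7 of all tested genes (0.0629%). The XBP1 element was found in 4 promoters of the higher genes (3.54%), in 2 of the lower genes (2.25%) and in 93 of all tested genes (0.836%). In the following stretches, read along the gene's strand from 5′ to 3′, capitals mark the fixed bases of ERSE (on the other strand it reads CGTGG first) for the 8 higher genes, and the whole of ERSE-II for Herpud1 and Dnajb11.
Derl3, chr10:75893227-75893275, plus strand: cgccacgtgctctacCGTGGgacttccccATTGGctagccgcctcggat
Creld2, chr15:88819505-88819553, plus strand: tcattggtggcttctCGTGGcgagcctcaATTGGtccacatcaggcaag
Hsp90b1, chr10:86705518-86705671, minus strand: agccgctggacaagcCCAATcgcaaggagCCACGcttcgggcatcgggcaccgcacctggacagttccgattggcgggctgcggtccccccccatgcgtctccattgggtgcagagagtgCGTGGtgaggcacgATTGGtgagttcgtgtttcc
Hspa5, chr2:34772010-34772058, plus strand: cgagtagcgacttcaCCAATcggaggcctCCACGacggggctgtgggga
Syvn1, chr19:6046517-6046565, plus strand: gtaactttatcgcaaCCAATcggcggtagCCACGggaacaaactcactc
Dnajc3, chr14:118937812-118937860, plus strand: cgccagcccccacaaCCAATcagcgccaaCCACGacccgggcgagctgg
Pdia6, chr12:17266476-17266524, plus strand: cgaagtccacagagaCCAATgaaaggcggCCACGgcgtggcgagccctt
Calr, chr8:84847060-84847108, minus strand: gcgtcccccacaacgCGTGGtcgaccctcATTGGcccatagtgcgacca
Herpud1, chr8:94386362-94386402, plus strand: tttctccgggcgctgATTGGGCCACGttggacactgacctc
Dnajb11, chr16:22857837-22857877, plus strand: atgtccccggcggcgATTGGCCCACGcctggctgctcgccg
Hsp90b1 held 2 ERSE, centred 202 and 98 bases before the start, and in Derl3 and Creld2 the element lay 146 and 116 bases before it. The match is to letters only, and binding was not measured. Canx, which did not pass the test, also held an ERSE, and Sdf2l1 and Pdia4 held none in this window.

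Of the sensors and factors that drive the response, Xbp1 had 151, 163 and 184 CPM in E332K livers, against 146, 177, 153 and 168 CPM in EGFP livers (log2 fold change 0.04 ± 0.10, adjusted p = 0.869). The gene-level counts do not show its splicing by IRE1. Ern1, which encodes IRE1α, was higher by 0.63 ± 0.12 (adjusted p = 0.00673) and Atf6 by 0.47 ± 0.11 (adjusted p = 0.0228), the second a call lost without E332K 2 or EGFP 2, 3 or 4 (0.34 to 0.59). Named after its values were seen, Bhlha15 (the secretory cell factor MIST1) had 17.1, 19.4 and 30.2 CPM in E332K livers, against 2.75, 2.42, 4.48 and 2.31 CPM in EGFP livers (log2 fold change 2.87 ± 0.24, adjusted p = 2.39e-05).

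Genes of transport out of the ER rose by smaller steps. Of 53 members tested of the list on the secretory pathway and Golgi transport, 18 were higher and 0 lower. The shares of all genes were 4.25% and 3.65%, and the list's median log2 fold change was 0.24. The largest change was that of Kdelr3, a receptor that returns escaped chaperones to the ER, which had 10.4, 13.7 and 19.4 CPM in E332K livers, against 4.65, 5.83, 6.23 and 3.42 CPM in EGFP livers (1.51 ± 0.23, adjusted p = 0.00228). Srprb, a subunit of the signal recognition particle receptor, was higher by 0.80 ± 0.11, the cargo adaptor subunit Mcfd2 by 0.77 ± 0.12 and Ssr4, of the translocon-associated complex, by 0.71 ± 0.11. Without E332K 3 and EGFP 3 the list had 10 members higher, without EGFP 2, 3 or 4 it had 12, and with the presence of Gm47283 or the mesothelial score as a covariate it had 0. A list of N-glycosylation and sugar nucleotide genes, added after values were seen, had 16 of 43 members higher and 0 lower, among them Gmppb (1.47 ± 0.14) and Gmds (1.67 ± 0.17), which make the GDP-mannose and GDP-fucose used to build glycans. With these covariates 3 and 2 members of that list were higher, and without E332K 3 and EGFP 3, 9 were. Of 33 proteasome subunits tested, 0 were higher and 0 lower by edgeR's adjusted p and the list's median was 0.12 (9 higher and 1 lower at an unadjusted p of at most 0.05, 2 higher and 0 lower by DESeq2).

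Of 26 tested targets of ATF4 and CHOP, 15 were higher and 1 lower (Cebpb, −0.51, a call lost in 5 of the 7 fits that left out 1 library), with a median log2 fold change of 0.51. Ddit3, which encodes the death-associated factor CHOP, had 68.1, 125 and 179 CPM in E332K livers, against 9.19, 11.03, 7.31 and 8.09 CPM in EGFP livers (log2 fold change 3.80 ± 0.26, adjusted p = 5.26e-06). Trib3, a pseudokinase induced by CHOP (chr2:152337422-152344032), had 36.2, 90.2 and 114 CPM in E332K livers, against 3.47, 4.16, 4.02 and 3.71 CPM in EGFP livers (4.37 ± 0.32, adjusted p = 6.33e-06). Nupr1, a small stress-induced chromatin protein, had 17.8, 48.1 and 49.3 CPM in E332K livers, against 1.96, 3.06, 2.32 and 2.12 CPM in EGFP livers (4.01 ± 0.32). For each of the 3 genes E332K 1 was the lowest of its group and still above every EGFP liver. The span of Ddit3 overlaps that of Mars on the other strand, and the library kit does not mark strand, so reads from a shared stretch cannot be told apart. Such overlaps also hold for Manf with Dcaf1, Syvn1 with Mrpl49, Pdia6 with Atp6v1c2 and Pdia3 with Catsper2. Others among the named genes include Timp1 with Syn1, Kdelr3 with Ddx17, Gmppb with Rnf123, Nans with Trim14 and Nr1d1 with Thra. Whether exons overlap was not examined. Chac1, which breaks down glutathione (3.53 ± 0.48), and Atf3, a feedback factor (2.56 ± 0.35), rose at low levels. Chac1 had 2.70 to 8.23 CPM in E332K livers and 0.145 to 0.784 CPM in EGFP livers, and Atf3 had 8.81 to 33.8 CPM in E332K livers and 2.51 to 4.31 CPM in EGFP livers. Atf4 itself was higher by 0.35 ± 0.08 (adjusted p = 0.0245), a call lost without E332K 1 or EGFP 1, 3 or 4 (0.32 to 0.38). Asns, asparagine synthetase, had 80.3, 74.3 and 95.99 CPM in E332K livers, against 80.2, 78.7, 69.5 and 73.1 CPM in EGFP livers (0.14 ± 0.10, adjusted p = 0.44). In the related list of amino acid supply and tRNA synthetases, 3 of 25 members were higher (Wars, Sars and Pycr1) and 0 lower. Among all genes 4.25% were higher and 3.65% lower. In that list 1 member was higher without EGFP 3 or EGFP 4 and 0 with either covariate. Without EGFP 4 the count of ATF4 and CHOP targets that were higher fell to 9, and without E332K 3 and EGFP 3 to 8. It was 4 with the presence of Gm47283 and 5 with the mesothelial score as a covariate.

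The composite element bound by ATF4 and its C/EBP partners was searched on both strands as TGATGNAA. It was found in 8 promoters of the genes at least 2-fold higher (7.08%), in 1 of those at least 2-fold lower (1.12%) and in 247 of all tested genes (2.22%). Among targets of ATF4 and CHOP with a promoter, the element was found in 5 of the 14 that were higher and in 6 of the 22 tested. Fgf21, which did not pass (log2 fold change 0.89, edgeR adjusted p = 0.111), also held it. The match is to letters only, and binding was not measured. Stretches of 4 higher targets that held the element are shown along the gene's strand, with the element in capitals and in the reverse orientation.
Trib3, chr2:152344024-152344061, minus strand: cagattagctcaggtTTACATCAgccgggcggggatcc
Nupr1, chr7:126625558-126625595, minus strand: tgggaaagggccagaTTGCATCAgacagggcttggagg
Chac1, chr2:119351034-119351071, plus strand: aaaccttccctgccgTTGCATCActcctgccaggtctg
Atf3, chr1:191183421-191183458, minus strand: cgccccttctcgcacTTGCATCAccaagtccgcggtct

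The CB.ST3GAL5 livers show the levels of the same genes with the wild-type cargo. In the comparison with CB.ST3GAL5 livers, in which 14742 genes were tested, 1479 genes were higher (10%) and 1408 lower (9.55%) in E332K livers. ER chaperones had 23 members higher and 0 lower there, and ERAD genes 11 and 0. Derl3 averaged 263 CPM in E332K livers and 1.44 CPM in CB.ST3GAL5 livers (log2 fold change 7.50, edgeR adjusted p = 0.00127), and 0.842, 0.422 and 0.565 CPM in Syn1.ST3GAL5.miR122BS, AAV9.empty and PBS livers. Creld2 averaged 523 CPM in E332K livers and 58.1 CPM in CB.ST3GAL5 livers (3.14, adjusted p = 0.0035). Ddit3 averaged 124 CPM in E332K livers and 27.4 CPM in CB.ST3GAL5 livers (2.15, adjusted p = 0.00591), against 9.43 CPM in AAV9.empty livers. Atf3 averaged 21.5 CPM in E332K livers and 50.05 CPM in CB.ST3GAL5 livers, a log2 fold change of −1.26 that did not pass the test (adjusted p = 0.0582). Gm47283 and Erdr1 were at 0 in all 3 CB.ST3GAL5 livers, so that these genes and the cargo cannot be told apart there, and both comparisons use the same E332K livers. The counts of 1479 and 1408 rested on single livers, since 934 genes in all passed without E332K 3 and 962 without CB.ST3GAL5 1, against 2887 with all 6.

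**Figure D3:**
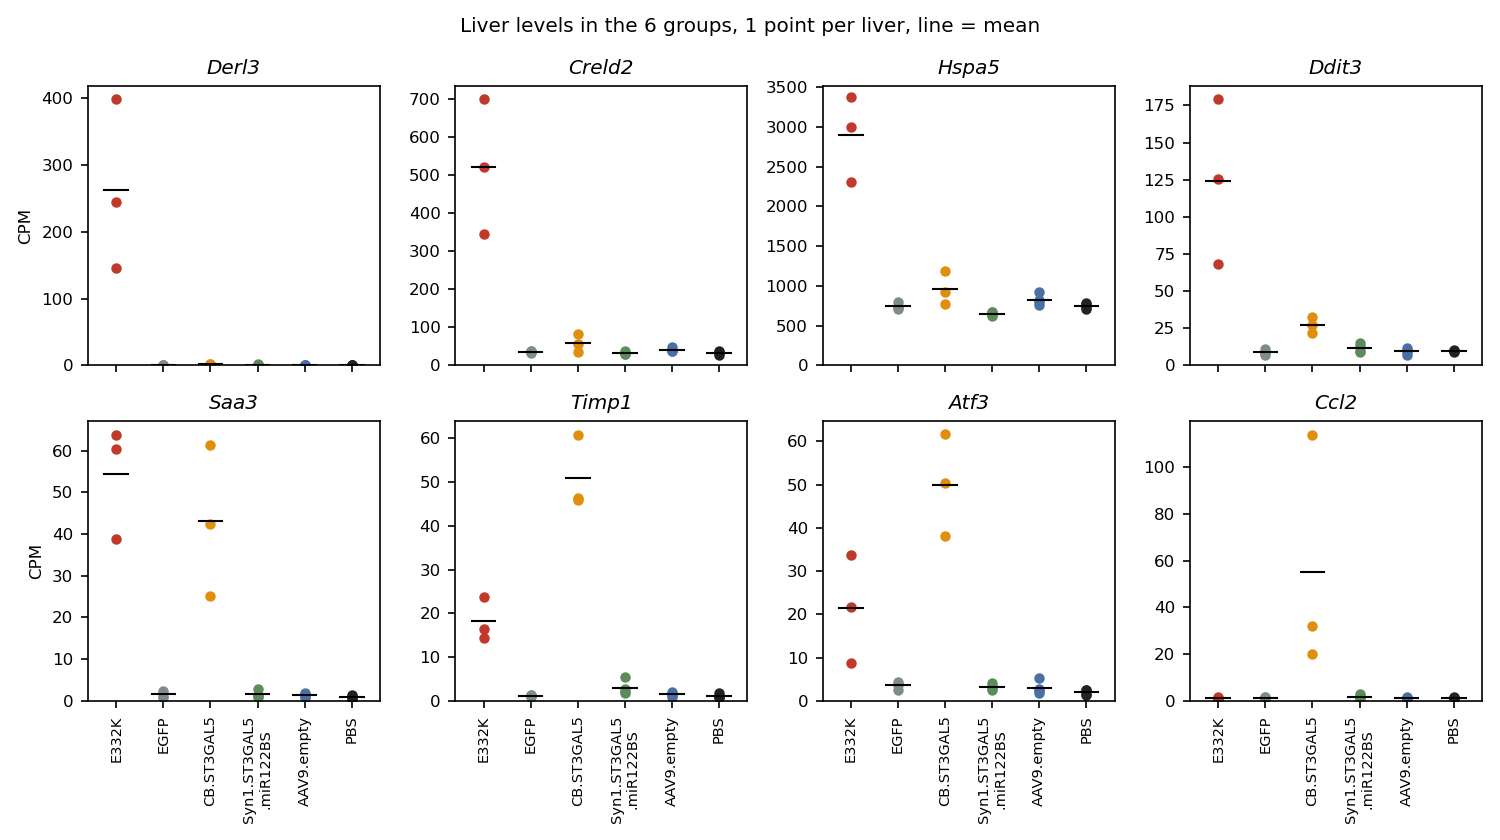
CPM (y axis, linear, from 0) of 8 genes in the 6 groups (x axis), with 1 point per liver and a line at the mean. Derl3, Creld2 and Hspa5 are high in the E332K group, while Saa3 is high in both E332K and CB.ST3GAL5 livers and Ccl2 in CB.ST3GAL5 livers.

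Acute-phase proteins, plasma proteins that the liver releases in inflammation, were raised for a few members. Of 28 tested, 7 were higher and 1 lower (Crp, −0.55 ± 0.12, a call lost without E332K 1), against 4.25% and 3.65% of all genes. Saa1 had 45.4, 30.4 and 38.4 CPM in E332K livers, against 0.168, 0.577, 0.0515 and 1.01 CPM in EGFP livers (log2 fold change 6.33 ± 0.35, adjusted p = 6.14e-07). Saa3 had 60.4, 38.9 and 63.8 CPM in E332K livers, against 1.01, 1.90, 0.979 and 2.31 CPM in EGFP livers (5.10 ± 0.25, adjusted p = 3.08e-07). Saa2 (5.42 ± 0.46), Orm2 (4.99 ± 0.58) and Orm1 (3.22 ± 0.46) followed, while the abundant heme carrier Hpx was higher by 0.76 ± 0.11 and Serpina3n by 0.59 ± 0.12. Saa1 with Saa2, and Orm1 with Orm2, are near-identical neighbours, so the split of reads within each pair is uncertain. None of these 7 genes passed the test between E332K and CB.ST3GAL5 livers. Over the list, 10 of 28 members were lower in E332K than in CB.ST3GAL5 livers and 0 higher, against 9.55% and 10% of all genes. Saa1 averaged 38.1 CPM in E332K livers and 43.8 CPM in CB.ST3GAL5 livers (−0.23, SE 0.41, adjusted p = 0.716). Saa3 averaged 54.4 CPM in E332K livers and 43.04 CPM in CB.ST3GAL5 livers (0.31, SE 0.30, adjusted p = 0.499). Timp1, an inhibitor of matrix proteases that the acute-phase cytokines induce, had 23.8, 16.4 and 14.5 CPM in E332K livers, against 1.29, 0.924, 1.13 and 1.30 CPM in EGFP livers (3.95 ± 0.21, adjusted p = 4.28e-07), and averaged 51.1 CPM in CB.ST3GAL5 livers.

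Cytokines and chemokines went both ways, with 3 of 24 tested members higher and 3 lower, against 4.25% and 3.65% of all genes. Their median log2 fold change was −0.30. Il23a, a subunit of interleukin-23, had 1.70, 1.25 and 2.83 CPM in E332K livers, against 0, 0.115, 0.103 and 0.0482 CPM in EGFP livers, which rested on 105 and 5 counts (4.70 ± 0.58, adjusted p = 0.0005). Ccl5, a chemokine of T cells, was higher by 1.32 ± 0.19 and Lif, of the interleukin-6 family, by 1.04 ± 0.27, a call lost in 5 of the 7 fits that left out 1 library. Cxcl2 was lower (−2.33 ± 0.63), on 8 and 56 counts, a call lost without any 1 of the 3 E332K livers (−2.66 to −1.91). Ccl2, which draws monocytes, had 1.70, 0.947 and 0.983 CPM in E332K livers, against 0.953, 1.501, 1.39 and 1.64 CPM in EGFP livers, and did not pass the test (−0.19 ± 0.34, adjusted p = 0.793). Nor did Tnf (−0.43 ± 0.41, adjusted p = 0.577), Il1a (−0.47 ± 0.18, adjusted p = 0.142) or Ccl3 (0.23 ± 0.51, adjusted p = 0.831). All 4 were lower in E332K than in CB.ST3GAL5 livers, where Ccl2 had 32.1, 114 and 19.97 CPM (log2 fold change −5.53, adjusted p = 0.00405) and Tnf had 5.75, 17.8 and 3.57 CPM (−3.90, adjusted p = 0.0085).

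Targets of p53, which halts growth and promotes death after damage to DNA, were higher in 17 of 38 members tested and lower in 0. The shares of all genes were 4.25% and 3.65%, and the list's median log2 fold change was 0.43. Phlda3, an inhibitor of AKT (chr1:135766119-135769136), had 68.2, 67.1 and 91.4 CPM in E332K livers, against 27.7, 29.4, 31.7 and 26.4 CPM in EGFP livers (1.38 ± 0.12, adjusted p = 2.38e-05). Cdkn1a, the cell cycle inhibitor p21, had 233, 208 and 279 CPM in E332K livers, against 131, 131, 124 and 128 CPM in EGFP livers (0.89 ± 0.10, adjusted p = 0.000297). EGFP livers were themselves above both groups without a vector genome in level, since Cdkn1a averaged 28.5 CPM in AAV9.empty livers and 20.9 CPM in PBS livers. Ccng1 (0.74 ± 0.10) and Plk2 (0.74 ± 0.11) followed. The count was 10 without EGFP 4 and 2 with the presence of Gm47283 or 4 with the mesothelial score as a covariate. Among targets of NRF2, the factor of the oxidative stress response, 9 of 33 were higher and 0 lower, and with either of these covariates 0 were higher. Gstp1, a glutathione transferase, had 1087, 975 and 2202 CPM in E332K livers, against 581, 455, 469 and 479 CPM in EGFP livers (1.51 ± 0.22), a change for which its near-identical neighbour Gstp2 (1.60 ± 0.32) cannot be separated. Slc7a11, the cystine carrier, was higher by 2.25 ± 0.43 on 55 and 15 counts.

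Immediate-early genes, which growth factors and stress switch on within minutes, had 12 of 31 members lower and 3 higher (Atf3, Gadd45a and Myc). Of all genes, 3.65% were lower and 4.25% higher, and the list's median was −0.32. The 12 fell to 8 without E332K 1 or EGFP 4, to 5 with the presence of Gm47283 and to 4 with the mesothelial score as a covariate, and the call for Myc was lost in each of the 7 fits that left out 1 library. Fos, a subunit of AP-1 (chr12:85473890-85477273), had 6.51, 6.88 and 8.23 CPM in E332K livers, against 26.1, 22.9, 30.9 and 27.8 CPM in EGFP livers (log2 fold change −1.92 ± 0.14, adjusted p = 5.97e-06). Zfp36, which destabilises cytokine mRNAs, had 38.1, 41.5 and 39.1 CPM in E332K livers, against 101, 76.5, 93.3 and 97.6 CPM in EGFP livers (−1.23 ± 0.11, adjusted p = 2.57e-05). Egr1 (−1.46 ± 0.18), Ier2 (−0.85 ± 0.11) and Fosb (−3.31 ± 0.65) were lower too, the last on 14 and 186 counts. Without a vector genome, Fos averaged 9.18 CPM in AAV9.empty livers and 4.49 CPM in PBS livers, levels on either side of the E332K mean and below every EGFP liver.

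Interferon-stimulated genes, the antiviral programme, were lower in 23 of 48 members tested and higher in 0, against 3.65% and 4.25% of all genes. Their median log2 fold change was −0.615. Ifit3, which blocks viral RNA, had 4.90, 4.73 and 5.47 CPM in E332K livers, against 11.7, 11.8, 13.5 and 17.4 CPM in EGFP livers (−1.45 ± 0.17, adjusted p = 0.000335). Oas1a, an activator of RNase L, had 6.86, 5.78 and 4.85 CPM in E332K livers, against 14.01, 12.2, 11.5 and 20.2 CPM in EGFP livers (−1.32 ± 0.20, adjusted p = 0.00233). Isg15 (−0.997 ± 0.24) and Ifit1 (−1.20 ± 0.27) were lower as well, the call for Isg15 being lost without E332K 3. Ifit3 averaged 16.2 CPM in AAV9.empty livers and 15.97 CPM in PBS livers. The count of members depended on the livers used: leaving out 1 library gave 10 members (without E332K 1) to 21 (without EGFP 3), with 11 without E332K 2 and 13 without E332K 3 or EGFP 4, leaving out E332K 3 and EGFP 3 gave 12, and fitting all 6 groups together, where CB.ST3GAL5 2 had an Ifit3 level of 82.4 CPM, gave 1. With the presence of Gm47283 as a covariate 1 member was lower, and with the mesothelial score 3 were.

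**Figure D4:**
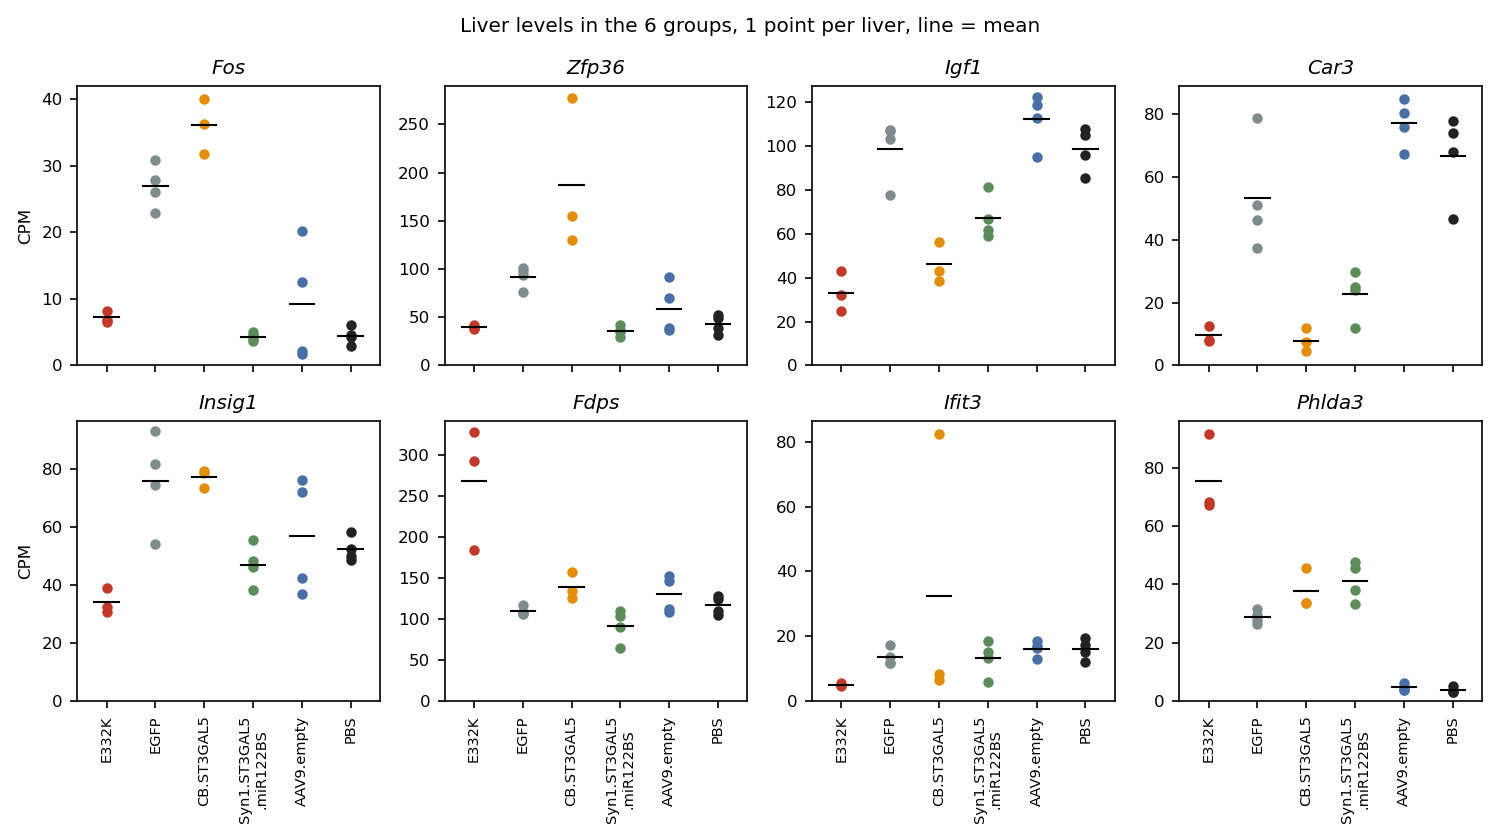
CPM (y axis, linear, from 0) of 8 genes in the 6 groups (x axis), with 1 point per liver and a line at the mean. Fos and Zfp36 are lower in each E332K liver than in each EGFP liver, and the mean levels of Igf1 and Car3 are lower in E332K livers than in EGFP, AAV9.empty and PBS livers.

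Among the largest decreases were genes of transport, metabolism and growth. Slc22a7, the organic anion transporter OAT2, had 0.751, 0.598 and 0.368 CPM in E332K livers, against 7.004, 3.93, 3.503 and 7.28 CPM in EGFP livers (log2 fold change −3.22 ± 0.37, adjusted p = 0.000308). Car3, a cytosolic carbonic anhydrase of fat, muscle and liver, had 12.7, 7.87 and 8.17 CPM in E332K livers, against 78.7, 37.5, 46.2 and 51.1 CPM in EGFP livers (−2.48 ± 0.24, adjusted p = 8.89e-05), and the mitochondrial Car5a, which supplies bicarbonate to the urea cycle, was lower (−2.64 ± 0.27). Igf1, the growth hormone-driven growth factor (chr10:87858265-87937042), had 42.9, 31.9 and 24.9 CPM in E332K livers, against 107, 103, 77.7 and 107 CPM in EGFP livers (−1.57 ± 0.17, adjusted p = 0.000176). The growth hormone receptor Ghr (−0.62 ± 0.08) and Igfals (−0.70 ± 0.11), which carries IGF-1 in plasma, fell too. Against CB.ST3GAL5 livers, none of Slc22a7 (−0.85, SE 0.72), Car3 (0.24, SE 0.33), Car5a (0.71, SE 0.44) and Igf1 (−0.50, SE 0.21) passed the test. Lists of hepatocyte genes had many members higher in E332K than in CB.ST3GAL5 livers, against 10% of all genes: 39 of 63 for amino acid breakdown and the urea cycle (0 lower), 25 of 40 for cytochrome P450 (2 lower), 20 of 41 for secreted proteins (1 lower) and 12 of 29 for phase II enzymes (0 lower).

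Of 41 hepatocyte secreted proteins tested, 7 were lower and 1 higher, and of 44 coagulation and complement genes 7 were lower and 2 higher. Among all genes 3.65% were lower and 4.25% higher. The median log2 fold change of the secreted proteins was 0.02, with 21 members above 0 and 20 below. That of the coagulation and complement genes was −0.10. Without EGFP 2 or EGFP 3 the secreted proteins had 3 members lower, and without EGFP 4 they had 4. With the presence of Gm47283 as a covariate 1 secreted protein and 0 coagulation and complement genes were lower, and with the mesothelial score 2 and 3 were. Alb (−0.47 ± 0.11, adjusted p = 0.0199) and Apob, the core of VLDL (−0.43 ± 0.10, adjusted p = 0.0212) both fell. Each call was lost in 4 of the 7 fits that left out 1 library, Alb without E332K 3 or EGFP 2, 3 or 4 (log2 fold change −0.54 to −0.42 over the 7 fits) and Apob without E332K 1 or EGFP 1, 2 or 3 (−0.51 to −0.38). Serpina1e, one of several near-identical α1-antitrypsin genes, had 1643, 1098 and 2046 CPM in E332K livers, against 3020.2, 3503, 2614 and 3595 CPM in EGFP livers (−1.01 ± 0.18). F3, tissue factor, was lower (−1.79 ± 0.38). Amino acid breakdown and the urea cycle had 12 of 63 members lower and 2 higher (Oat and Ftcd), among them Bckdhb of branched-chain breakdown (−0.68 ± 0.08), Aass of lysine breakdown (−1.05 ± 0.16) and the serine dehydratase Sds (−1.27 ± 0.24). The count of 12 grew to 23 without E332K 3, to 26 without E332K 3 and EGFP 3 and to 18 with the mesothelial score, and fell to 1 with the presence of Gm47283. The call for Oat was lost without EGFP 4 and that for Ftcd in 5 of the 7 fits. Cytochrome P450 genes went both ways, with 9 of 42 higher and 4 lower: Cyp1a2, which metabolises caffeine, had 8.11, 7.08 and 13.9 CPM in E332K livers, against 43.8, 36.8, 25.1 and 29.6 CPM in EGFP livers (−1.82 ± 0.23), and Cyp2j5 was lower (−1.24 ± 0.12), while Cyp2a4 (2.52 ± 0.36) and Cyp2d9 (1.10 ± 0.12) were higher. Without E332K 3, 5 were higher, and with the presence of Gm47283 or the mesothelial score 1 and 2 were. Several P450 genes share reads with close copies. Ces3a, a carboxylesterase (−1.40 ± 0.12), and Errfi1, an inhibitor of the EGF receptor (−1.04 ± 0.10), fell.

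Of 25 cholesterol genes tested, 2 were higher and 5 lower, against 4.25% and 3.65% of all genes, with a median log2 fold change of −0.21. Fdps, which makes farnesyl diphosphate, had 294, 184 and 328 CPM in E332K livers, against 118, 108, 109 and 106 CPM in EGFP livers (log2 fold change 1.28 ± 0.15, adjusted p = 0.000426), and Mvd, an earlier step of the same branch, was higher by 1.03 ± 0.19. Insig1, the ER anchor that holds back SREBP, had 32.5, 38.9 and 30.7 CPM in E332K livers, against 93.3, 74.4, 54.1 and 81.9 CPM in EGFP livers (−1.16 ± 0.16, adjusted p = 0.00104). The 5 became 10 without E332K 1, 3 in each of the other fits that left out 1 library and 0 with the presence of Gm47283 as a covariate. Among fat genes, Cidec, a lipid droplet protein, was higher by 1.69 ± 0.26 and G0s2, an inhibitor of triglyceride lipase, was lower (−1.04 ± 0.17).

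For the pathway of the cargo itself, 0 of 37 tested genes of glycosphingolipid synthesis and breakdown were higher and 1 lower, against 4.25% and 3.65% of all genes. Of 18 tested sialyltransferases and genes of CMP-sialic acid supply, 1 was higher, 2 were lower and 15 neither, and no sialyltransferase passed. Nans, which makes sialic acid phosphate, had 80.1, 76.04 and 118 CPM in E332K livers, against 43.8, 41.2, 41.6 and 39.1 CPM in EGFP livers (log2 fold change 1.13 ± 0.13, adjusted p = 0.000378). Cmah, which turns CMP-Neu5Ac into the Neu5Gc form, was lower (−0.77 ± 0.16), as was Slc35a1, the carrier of CMP-sialic acid into the Golgi (−0.41 ± 0.11), although the call for Slc35a1 was lost in each of the 7 fits that left out 1 library (−0.43 to −0.38).

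**Figure D5:**
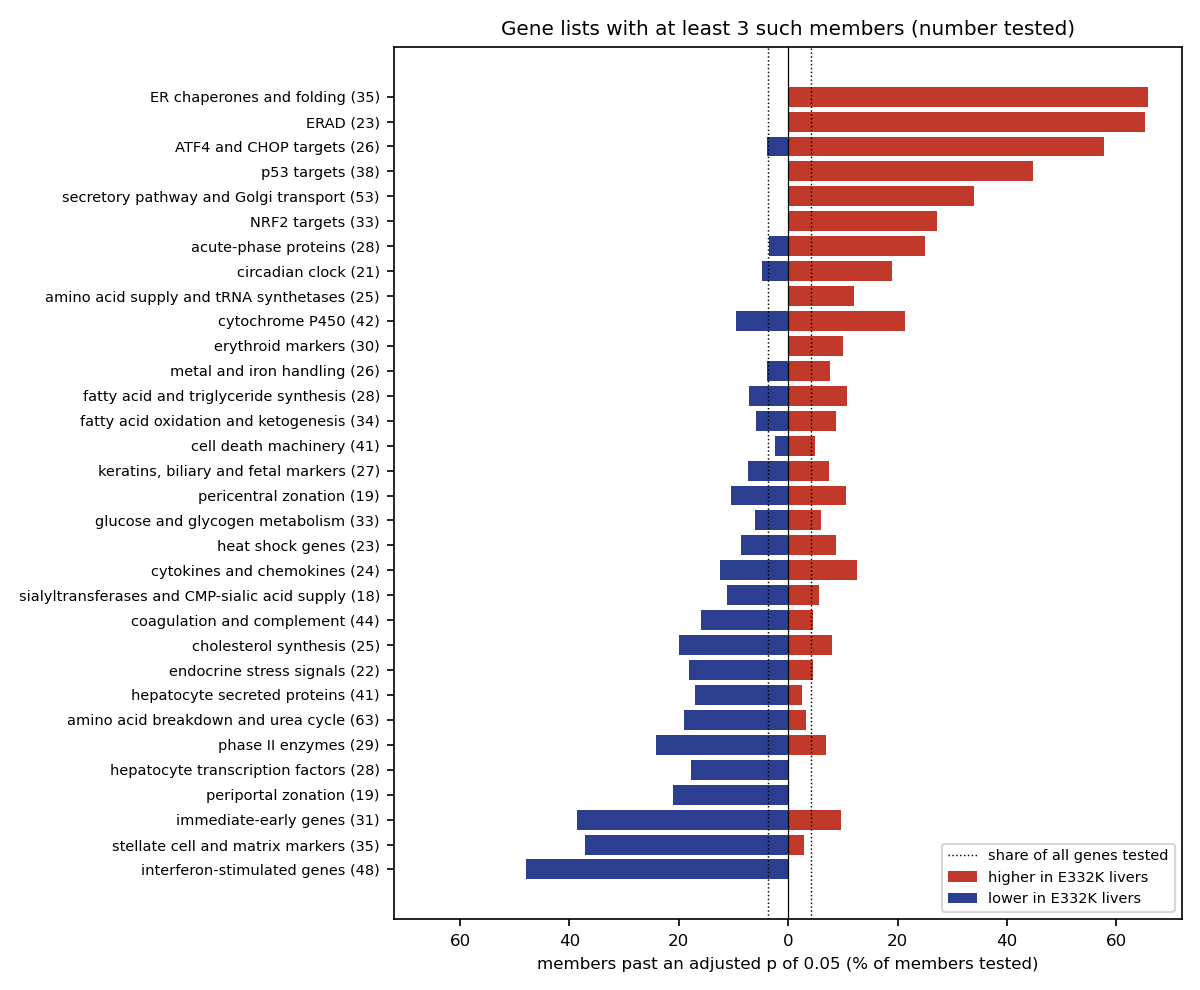
Share of the tested members of each list past an adjusted p of 0.05 (x axis, percent), higher in E332K livers to the right and lower to the left, for the lists with at least 3 such members (number tested in brackets). Dotted lines mark the 4.25% higher and 3.65% lower among all genes, and ER chaperones and ERAD genes have the largest shares to the right and interferon-stimulated genes the largest to the left.

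Of the tested members, 0 of 26 sinusoidal endothelial, 0 of 17 T and NK cell, 0 of 15 B cell and 0 of 20 megakaryocyte markers passed edgeR's test in either direction. At an unadjusted p of at most 0.05, 3 T and NK cell markers were higher, and 3 sinusoidal endothelial, 7 B cell and 1 megakaryocyte markers were lower. By DESeq2, 1 B cell and 1 megakaryocyte marker were lower, and 0 sinusoidal endothelial or T and NK cell markers passed. Log2 fold changes were below 0 for 15 of 15 B cell and 19 of 20 megakaryocyte markers (medians −0.49 and −0.13). They were above 0 for 14 of 17 T and NK cell markers (median 0.40). Of 25 neutrophil and 30 Kupffer cell and monocyte markers 1 each was lower (Mmp8, −0.60, and Csf1r, −0.45), against 3.65% of all genes. The summed level of the neutrophil list was 2577 to 3199 CPM in E332K livers and 2350 to 3268 CPM in EGFP livers. Erythroid markers had 3 of 30 members higher (Car1, Klf1 and Epor), against 4.25% of all genes. Their sums were 30950 to 64120 CPM in E332K livers and 42490 to 51040 CPM in EGFP livers. The count was 18 without E332K 3, the liver with the lowest sum, and 1 without E332K 1 or EGFP 2, 3 or 4. It was 0 with the presence of Gm47283 and 19 with the mesothelial score as a covariate. The calls for Klf1 and Epor were lost in 4 and 5 of the 7 fits that left out 1 library, and that for Mmp8 in 6. Stellate cell and matrix genes were lower in 13 of 35 and higher in 1 (Timp1), with sums of 2028 to 2526 CPM in E332K livers and 2692 to 3559 CPM in EGFP livers. Col1a1, the main fibrillar collagen, had 78.7, 139 and 70.7 CPM in E332K livers, against 159.8, 172, 286 and 184 CPM in EGFP livers (−1.07 ± 0.24, adjusted p = 0.0208), and the stellate cell marker Reln was lower (−0.67 ± 0.09). The call for Col1a1 was lost without E332K 1 or E332K 3 (−1.44 to −0.84). The count of 13 fell to 2 without E332K 1 and when E332K 3 and EGFP 3 were left out, to 4 without E332K 3 alone, to 7 without EGFP 3 and to 8 without EGFP 4. The 11 mesothelial markers, a list added after the values were seen, summed to 41.1, 54.9 and 16.03 CPM in E332K livers, against 78.2, 92.5, 111 and 92.8 CPM in EGFP livers. Their part in the result was not tested beyond a fit with that score as a covariate, which left 0 matrix members lower. Since these sums did not overlap between the groups, the fit cannot separate the score from the cargo. The same limit holds for each count given with this score. Casq2 and Tnni1, muscle genes among the largest decreases (−3.37 and −2.58), had their highest level in EGFP 3, at 10.04 and 3.503 CPM, and passed neither without it nor without any 1 of the E332K livers. Gm29216, a pseudogene on chromosome 1 (−1.77 ± 0.13), can share reads with a near-identical copy.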

How the data were processed

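The authors trimmed reads with Trimmomatic, mapped them to mm10 with STAR and estimated expression with RSEM (versions not given in the sources used here), after poly(A) selection, rRNA removal and an unstranded NEBNext library kit. The deposited tables hold RSEM expected counts and, from the same run, TPM as deposited by the authors. Expected counts were rounded, filtered with filterByExpr, scaled with TMM and tested in edgeR 4.0.16 (R 4.3.3, quasi-likelihood F-test, Benjamini-Hochberg over all genes tested); the standard error is the log2 fold change divided by the square root of F. TPM entered only limma 3.58.1 alternatives. DESeq2 1.42.0, other filters, size factors, covariates and the omission of each library were further alternatives. The vector dose and the human transgene were not analysed here. Gene positions are from GENCODE vM21 and promoters from RefSeq.

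The members and lists were chosen with earlier results of these data known, and 3 lists were added after values were seen. Named genes were the 12 with the largest fold change and the 10 with the largest CPM difference in each direction, the 10 with the smallest adjusted p, the 4 leading members of each of 50 lists, other members beside their list's count, and 8 fixed genes. Bhlha15 was named outside this rule, and some members that the rule would name are not reported here. On simulated counts for 14499 genes with the E332K and EGFP design, 75% of genes changed 2-fold and 91% of those changed 4-fold were called, with 6 unchanged genes called. The counts were drawn for each gene on its own, with no shift shared across a liver, so these rates need not hold for the data. Libraries held 17546985 to 21387813 expected counts.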

Additional observations from a re-analysis of the deposited data

Results flagged for a closer look

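Among 135 named genes with CPM in the 4 EGFP livers, 13 had 1 liver so far from the nearest other that the gap, as a share of the group's whole range, was above Dixon's 95% critical value for 4 samples. Chance flags about 1 in 20 such groups when they are independent, and 9.63% were flagged here. These 2 shares cannot be compared, since the genes share the same 4 livers and were not drawn at random. Gm47283, Erdr1 and Mid1, all flagged, were among the genes fixed by name. EGFP 3 was the liver apart for 6 genes and EGFP 4 for 5. EGFP 3 was the highest for Gm47283 and Erdr1, both with a gap share of 1, for Mid1 (0.958), and for the muscle genes Casq2 (0.905) and Tnni1 (0.835), and the lowest for Igf1 (0.859). EGFP 4 was the highest for Csf1r (0.964), Orm1 (0.917), Saa2 (0.967), Igfals (0.858) and Nfil3 (0.864). EGFP 2 was the highest for Crp (0.926) and the lowest for Gmppb (0.919). The E332K group has 3 livers and was not examined in this way.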

How the results depend on the processing

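Of the 272 genes changed at least 2-fold, 257 also passed both thresholds with DESeq2, 272 with DESeq2-type size factors in edgeR and 152 without E332K 3 and EGFP 3. The count of 272 became 432 with no filter on low counts (175 higher and 257 lower, against 149 and 123), 1161 with no minimum fold change and 154 at an adjusted p of at most 0.01. With limma on log2(TPM + 1) it was 117 (66 without the filter) and on log2(TPM + 0.1) 150, and the 1161 genes past the adjusted p alone became 454 (156 without the filter) and 471. There 39.0% and 38.9% of these 2 counts were on the higher side, against 53.8% in edgeR. As covariates, the erythroid score gave 1812 genes, the presence of Gm47283 gave 255 (90 higher and 165 lower, and 74 and 126 at 2-fold), and the mesothelial score gave 384 (263 higher and 121 lower, and 153 at 2-fold). Without E332K 3 and EGFP 3 there were 767. Leaving out 1 library gave 182 to 281 genes at 2-fold and 681 to 1049 at the adjusted p. E332K against CB.ST3GAL5 had 4991 genes with all 6 groups in 1 fit, and 934 to 3152 with 1 library left out. The cause of these shifts was not tested. The mesothelial score and the exclusion of E332K 3 and EGFP 3 together were chosen after seeing the data. The summed mesothelial markers did not overlap between the groups, so the fit with that score cannot separate it from the cargo. The fit with Gm47283 presence compares E332K livers with EGFP 3 alone, so its counts cannot show the part of that gene.

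Of 135 named genes, 121 passed in edgeR, and 55 did so with limma on log2(TPM + 1) without a filter, 61 with Gm47283 presence and 59 with the mesothelial score. Leaving out 1 library ended 25 of the 121 calls at least once and reversed 0, among them Alb, Apob, Atf4, Atf6, Cebpb, Col1a1, Isg15, Cxcl2 and Slc35a1. Directions turned for the genes that follow, of which Casq2 and Tnni1 had passed. With the mesothelial score the log2 fold change was −0.18 for Asns, 1.19 for Casq2, 0.0296 for Ccl2, −0.0376 for Pdia5, 0.24 for St3gal5, 0.27 for Tnf, 0.0323 for Tnni1, −0.0913 for Txndc5 and −0.115 for Xbp1. With Gm47283 presence it was −0.10 for Gm47283 and −0.76 for Mid1. Without E332K 3 and EGFP 3 it was −0.0028 for Asns, 0.0003 for St3gal5 and −0.0594 for Xbp1. For Xbp1 limma on TPM gave −0.0492 and −0.0497. Leaving out 1 library gave −0.144 to 0.577 for Ccl3, −0.315 to 1.04 for Mid1, −0.247 to 0.0012 for St3gal5 and −0.0444 to 0.103 for Xbp1.

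The replicate numbers do not pair the livers: deviations of same-numbered E332K and EGFP livers correlated at −0.0753, 0.0322 and −0.118. With the replicate number as a block, 212 genes were changed at least 2-fold and 617 passed the adjusted p. Low counts limit the precision for Il23a and Fosb.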

Other observations

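Cytosolic heat shock genes did not follow the ER chaperones as a list, with 2 of 23 tested members higher and 2 lower in E332K livers (edgeR, adjusted p of at most 0.05). Among all genes 4.25% were higher and 3.65% lower. Bag3, a co-chaperone of Hsp70 (0.97 ± 0.19, SE), was higher, as was Hspa1b, an inducible Hsp70 with a near-identical copy (0.999 ± 0.21). Hspd1, the mitochondrial chaperonin Hsp60, had 309, 268 and 278 CPM in E332K livers, against 476, 440.1, 394 and 358 CPM in EGFP livers (−0.56 ± 0.11), and Hsp90aa1, the inducible cytosolic Hsp90, had 210.4, 178 and 179.9 CPM in E332K livers, against 317, 257, 245 and 220.1 CPM in EGFP livers (−0.46 ± 0.12). The call for Hsp90aa1 was lost in 5 of the 7 fits that left out 1 library, and that for Hspa1b without E332K 1. Clock genes had 4 of 21 members higher and 1 lower, against the same shares of all genes. The 4 became 1 without E332K 3, EGFP 1 or EGFP 4, 2 without EGFP 2 and 0 with the presence of Gm47283 or the mesothelial score as a covariate. Bhlhe40, a repressor in the clock loop, had 62.3, 49.7 and 72.1 CPM in E332K livers, against 128, 116, 104 and 117 CPM in EGFP livers (−0.93 ± 0.12), so the groups did not overlap, while Nfil3 (0.70 ± 0.15) and the clock repressor Nr1d1 (1.03 ± 0.25) were higher, the call for Nr1d1 being lost in 5 of the 7 fits that left out 1 library. The hour at which each liver was taken was not used here. Dlk1, a marker of fetal hepatoblasts, had 59.5, 67.8 and 62.1 CPM in E332K livers, against 92.9, 102, 108 and 104 CPM in EGFP livers (−0.70 ± 0.09), and no E332K liver reached the lowest EGFP liver.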
